A study of Mus musculus with 17 samples.

Results

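The genes described here encode the subunits of the mitochondrial respiratory chain and of the ATP synthase, and were read in RNA of laser-captured dentate gyrus from mice lacking FOXO 1/3/4 (KO) and from WT mice. All probe sets with a single gene symbol of the Nduf, Sdh, Uqcr, Cox4 to Cox8 or Atp5 families, or of Cycs or Cyc1, were taken, and each gene was represented by its brightest probe set. This gave 92 genes from 184 probe sets, of 18193 genes and 45037 mouse probe sets on the array. They fall into 34 subunits of complex I, 8 assembly factors of complex I (Ndufaf genes), 4 subunits of complex II, 9 of complex III, cytochrome c (Cycs), 19 of complex IV and 17 of complex V. Ndufa4 and its paralog Ndufa4l2, named after complex I, were counted with complex IV, where the Ndufa4 protein is known to reside. Another 10 probe sets name one of these genes together with a different gene and were left out.

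In the KO mice, floxed Foxo1, Foxo3 and Foxo4 alleles were deleted by hGFAP-cre, which is active in progenitors that neurons and glia share, so that both lose the genes. The mice were of a mixed FVB and B6 background. The label of the controls is WT alone, and neither their floxed or cre alleles nor the age and sex of the array samples are given in the sources used here. There were 8 KO and 7 WT samples, each with a mark of its own, and 2 further samples marked CA13 that belong to the marks 433 (KO) and 437 (WT). No source states that the marks are separate animals, so that p-values cover the spread of these samples alone, part of which may be technical. By a number in their labels, whose meaning is not given, the 15 unmarked samples form a smaller series of 4 (2 KO and 2 WT) and a larger series of 11.

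The Foxo1 signal was 121 to 658 in the KO samples and 4970 to 19074 in the WT samples, without overlap. The labels do not say what CA13 means. If it marks the CA fields, the unmarked library labelled 433 went against its label. Its mean of 12 granule neuron markers was 8.04 on the log2 scale, beside 8.002 in the CA13-marked sample of 437 and 11.36 to 11.66 in the other 15 samples, and its mean of 12 pyramidal neuron markers of the CA fields was 10.97, beside 10.90 and 7.94 to 8.79. For a gene described below, the fold change without the library labelled 433 is given where leaving it out turned the sign or moved the value by over 1.5 times. The medians of the complexes without it lay between -0.06 and 0.05. Among 7 marker lists, that of oligodendrocytes had the most genes past an unadjusted threshold. At an unadjusted limma p under 0.05, 3 of 9 were higher in KO (1.53% of all genes). The list had a median log2 fold change of 0.36, and the mean of the 9 lay at 9.21 to 10.26 in WT and 9.67 to 10.75 in KO. The granule neuron markers had the largest median by size, -0.42, with 1 of 12 lower at that level. The pyramidal neuron markers had a median of 0.18, with 1 of 12 higher. The library labelled 433 is among the KO samples of these fits. In the other KO samples the mean of the granule markers was 11.41 to 11.58, within the WT range of 11.36 to 11.66. Their mean of the pyramidal markers was 7.94 to 8.57, beside 8.04 to 8.79 in WT. The part of these marker differences in the values below was not tested.

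The respiratory chain passes electrons from NADH (complex I) and succinate (complex II) through complex III and the mobile carrier cytochrome c to oxygen at complex IV. Complexes I, III and IV pump protons across the inner mitochondrial membrane, and complex V, the ATP synthase, uses their return to make ATP. Neurons draw most of their ATP from this route. All genes here are nuclear, and many are known to be controlled by NRF1, by ETS factors such as GABPA, and by YY1. FOXO factors and mitochondrial content have been linked in neural cells. The comparison of KO with WT asks whether mRNA of the chain differs in the samples without FOXO. These had a granule profile by their markers, except the library labelled 433.

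Promoter sequence was read for the 75 of the 92 genes that have a RefSeq window on GRCm38.p6, from 250 bases before to 50 bases after the annotated start, and searched on both strands for short core strings. The NRF1 string CGCATGCG stood in 11 of 75 genes (14.7%) and in 3.28% of 14367 genes on the array with such a window. The ETS string CCGGAAG stood in 19 (25.3%, against 15.02%), and the YY1 string AAGATGGCG in 7 (9.33%, against 2.54%). At least 1 of these 3 strings was present in 30 of the 75 genes (40%) and in 19.4% of genes on the array, and at least 2 of them in 6 (8%) and 1.39%. The forkhead string GTAAACA, which FOXO proteins are known to bind, was present in 2 genes (2.67%) and in 3.38% of genes on the array. These are the windows of Cycs, which carries the NRF1 string, of Atp5j, which carries the NRF1, YY1 and ETS strings, and of Cox7a2 and Ndufaf1, the 2 genes with the forkhead string (in Ndufaf1 on the opposite strand as TGTTTAC, followed by an ETS string). They lie on the minus strand at chr6:50566520-50566819, chr16:84834927-84835226, chr9:79759804-79760103 and chr2:119662785-119663084. The strings are in capitals and do not overlap each other.
Cycs: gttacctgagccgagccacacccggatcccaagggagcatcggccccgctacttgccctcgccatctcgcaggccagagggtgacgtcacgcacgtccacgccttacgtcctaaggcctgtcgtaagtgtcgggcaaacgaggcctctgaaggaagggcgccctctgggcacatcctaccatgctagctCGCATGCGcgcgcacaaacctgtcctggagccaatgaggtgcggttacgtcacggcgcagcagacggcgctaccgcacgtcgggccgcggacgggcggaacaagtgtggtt
Atp5j: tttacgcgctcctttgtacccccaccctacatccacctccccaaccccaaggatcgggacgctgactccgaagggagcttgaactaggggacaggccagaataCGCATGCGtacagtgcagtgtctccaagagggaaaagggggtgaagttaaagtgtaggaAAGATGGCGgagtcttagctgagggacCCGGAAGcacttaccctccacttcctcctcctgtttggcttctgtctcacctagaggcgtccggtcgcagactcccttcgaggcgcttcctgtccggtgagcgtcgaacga
Cox7a2: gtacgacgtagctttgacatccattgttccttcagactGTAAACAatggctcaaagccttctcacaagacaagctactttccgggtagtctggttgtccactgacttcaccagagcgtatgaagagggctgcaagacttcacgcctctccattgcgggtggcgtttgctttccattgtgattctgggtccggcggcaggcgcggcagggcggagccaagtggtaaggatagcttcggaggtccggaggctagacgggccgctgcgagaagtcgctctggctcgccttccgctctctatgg
Ndufaf1: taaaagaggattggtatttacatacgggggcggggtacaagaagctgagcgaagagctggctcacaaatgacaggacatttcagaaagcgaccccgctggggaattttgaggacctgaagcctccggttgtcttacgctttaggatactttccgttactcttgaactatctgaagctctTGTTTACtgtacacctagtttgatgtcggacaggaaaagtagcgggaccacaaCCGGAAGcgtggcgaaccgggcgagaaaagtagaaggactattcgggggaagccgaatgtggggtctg
In Cycs the NRF1 string starts 61 bases before the annotated start. In Atp5j the NRF1 string starts 147, the YY1 string 88 and the ETS string 61 bases before it. The forkhead string starts 212 bases before the start in Cox7a2 and 71 in Ndufaf1. The Cox7a2 window lies inside the annotated gene, which runs on to chr9:79771422, so that this start is not the outermost one. Of the respiratory genes with a window, 5 had 2 windows, and a string in either was counted. A string in a window is a match of letters, and binding was not measured.

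**Figure D1:**
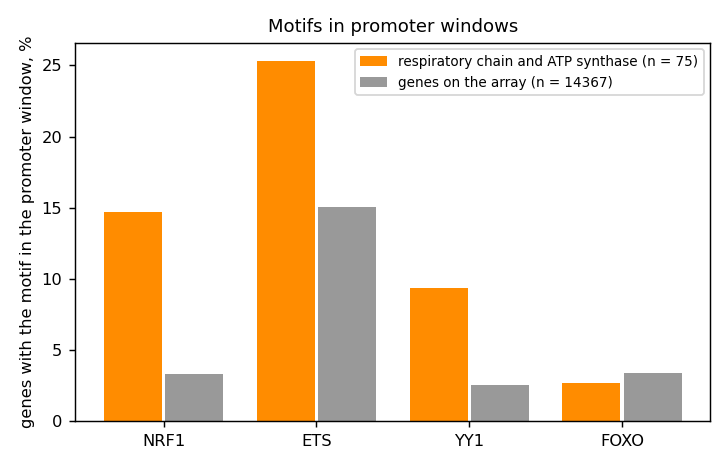
Share of genes whose promoter window holds each core string (vertical axis, percent), for the 75 respiratory chain and ATP synthase genes with a window (orange) and for 14367 genes on the array (grey). The NRF1, ETS and YY1 strings were at 14.7%, 25.3% and 9.33% in the former and 3.28%, 15.02% and 2.54% in the latter, while the forkhead string was at 2.67% and 3.38%.

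The deposited signals of these genes in WT ran from 12.2 (Cox8b) to 48206 (Uqcrb). A mean WT signal above 1000 was found for 66 of the 92 probe sets and for 23.5% of all genes, and one above 10000 for 43 of them and 3.55% of all genes. A signal depends on the probes as well as on the mRNA, and levels are therefore not compared between genes. It does bear on precision: the standard error (SE) of the log2 fold change had a median of 0.11 for genes above 10000 and 0.21 for genes below 1000. The 6 genes below the array median of 100.6 are all of complex IV: Cox4i2, Cox6b2, Cox7a1, Cox7b2, Cox8b and Ndufa4l2. Most of these encode forms known from other tissues, such as Cox7a1 and Cox8b from muscle and Cox6b2 and Cox7b2 from testis.

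No subunit gene passed the test between KO and WT. Levels are given as log2(signal + 32) after quantile normalization, on which fold changes of dim genes are understated, and limma was fitted to all 45037 probe sets. At an adjusted p under 0.05, 0 of the 92 genes were called, beside 2 of all 18193 genes (0.011%) and 0.0133% of all probe sets, and the adjusted p was 1.00 for each of the 92. Without adjustment, 2 of the 92 had a limma p under 0.05, against 3.05% of all genes: Ndufb4 was higher in KO (background 1.53%) and Cox6a2 lower (background 1.52%). After adjustment, SAM and the methods' t-test also called 0. The KO and WT ranges were separate in 0 of the 92 genes (background 0.022%). The fold change was positive in 47 and negative in 45, while 52.4% of all genes were positive. The median log2 fold change was 0.00 for the 92 genes and 0.01 for all genes.

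The intervals were narrow enough to bound the differences on the log2 scale used. On this scale the 95% confidence interval of the fold change lay within 2-fold in either direction for 91 of the 92 genes and within 1.5-fold for 73. The exception at 2-fold was Ndufs5, a small accessory subunit of complex I. The 91 include the 6 genes below the array median of 100.6, whose fold changes are understated on this scale. For Cox8b, the mean signal was 12.2 in WT and 29.5 in KO, while the log2 fold change was 0.37. For such dim genes the intervals do not bound the fold change of the signal. In bulk RNA, a change in the share of a cell type and a change in RNA per cell cannot be told apart. Where several probe sets read a gene, they often differed in sign: 29 of 52 such genes had probe sets on both sides of 0. The 92 probe sets that were not the brightest of their gene held 0 calls, and 1 of them had an unadjusted p under 0.05.

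**Figure D2:**
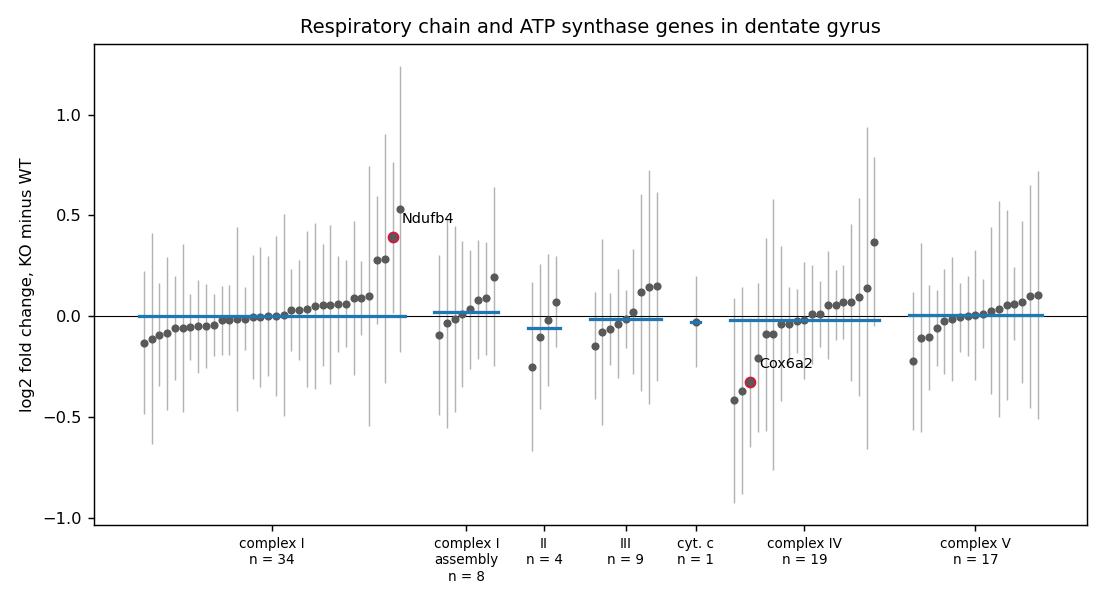
Log2 fold change of each gene, KO minus WT (vertical axis), with its 95% confidence interval from limma, ordered within each complex (horizontal axis). Blue lines are medians of the complex, and the larger red points mark the 2 genes with an unadjusted p under 0.05. The complex medians lie between -0.06 and 0.02, and all but the interval of Ndufs5 stay within 1 of 0.

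Complex I, the entry point for NADH, had a mean level over its 34 subunits of 12.62 ± 0.14 in the 7 WT and 12.66 ± 0.13 (SD) in the 8 KO samples, and a median log2 fold change of 0.00. Ndufv1, which binds NADH, ran from 13.39 to 13.86 over the WT samples (median 13.60) and from 13.40 to 13.99 over the KO samples (median 13.70), with a log2 fold change of 0.06 (SE 0.11), or 0.04 without the library labelled 433. Ndufs1, the largest iron-sulfur subunit, ran from 11.02 to 11.50 over the WT samples (median 11.34) and from 10.71 to 11.65 over the KO samples (median 11.43), with 0.06 (SE 0.14), or 0.12 without that library. Both pairs of ranges overlapped.

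Ndufb4, an accessory subunit of the membrane arm encoded at chr16:37647602-37654368, was the subunit with the lowest p in complex I. The 7 WT samples ran from 6.66 to 7.62 with a median of 7.26, and the 8 KO samples from 7.17 to 7.89 with a median of 7.59. WT samples 41, 393 and 437 lay below every KO sample, and the other 4 lay within the KO range. The log2 fold change was 0.39 (SE 0.18, 95% confidence interval 0.02 to 0.77, limma p = 0.0424, adjusted p = 1.00), and the exact two-sided permutation test over 6435 splits gave p = 0.0264 for this gene alone. The difference was 0.38 without the library labelled 433 and 0.39 within either series. This probe set is dim, with a mean signal of 117.5 in WT and 160.9 in KO, and a brighter one that also names another gene was left out.

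Ndufs5 had the largest positive value of the 92 genes. Its WT samples ran from 6.12 to 8.71 (median 8.12) and its KO samples from 7.20 to 8.91 (median 8.42), for a log2 fold change of 0.53 (SE 0.34, 95% confidence interval -0.18 to 1.24). The lowest WT sample, 385, lay more than 1 below the next. Ndufa10, an accessory subunit, was at 10.38 to 11.42 in WT and 10.86 to 11.48 in KO, with 0.28 (SE 0.15). The assembly factors of complex I, which are not part of the finished enzyme, had a median of 0.02. Ndufaf8, Ndufaf7 and Ndufaf5, which had the smallest p among them, were at 0.20 (SE 0.21), 0.09 (SE 0.13) and 0.08 (SE 0.14). The other, dimmer probe set of Ndufaf8 gave -0.32 (SE 0.24). Ndufaf5 and Ndufaf7 modify core subunits of the complex, and Ndufaf8 is a partner of Ndufaf5.

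Complex II, succinate dehydrogenase, is shared with the citrate cycle. Its mean level was 11.72 ± 0.13 in the 7 WT and 11.65 ± 0.14 (SD) in the 8 KO samples. Sdha, the flavoprotein, was at 14.01 to 14.66 in WT and 14.18 to 14.61 in KO, with a log2 fold change of 0.07 (SE 0.11). Sdhb, the iron-sulfur subunit, had -0.10 (SE 0.17), and Sdhc, a membrane anchor, -0.25 (SE 0.20) with the library labelled 433 and -0.17 without it. The other probe set of Sdhc gave 0.10 (SE 0.16). Every pair of ranges overlapped.

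Complex III had a mean level of 12.16 ± 0.23 in the 7 WT and 12.18 ± 0.19 (SD) in the 8 KO samples. Uqcrfs1, the Rieske iron-sulfur protein, was at 9.62 to 10.41 in WT and 9.18 to 10.94 in KO, with 0.15 (SE 0.22), or 0.23 without the library labelled 433. Cyc1, cytochrome c1, had -0.04 (SE 0.13), and Uqcrc2, a core protein, -0.06 (SE 0.09). Uqcrh, the hinge protein, had -0.14 (SE 0.13), the smallest p of the complex, and 0.02 (SE 0.18) for its other probe set. Cycs, which carries electrons on to complex IV, ran from 14.02 to 14.60 over the WT samples (median 14.35) and from 14.04 to 14.49 over the KO samples (median 14.24), with -0.03 (SE 0.11, 95% confidence interval -0.25 to 0.20), or -0.06 without that library. The KO range of Cycs lay within the WT range.

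**Figure D3:**
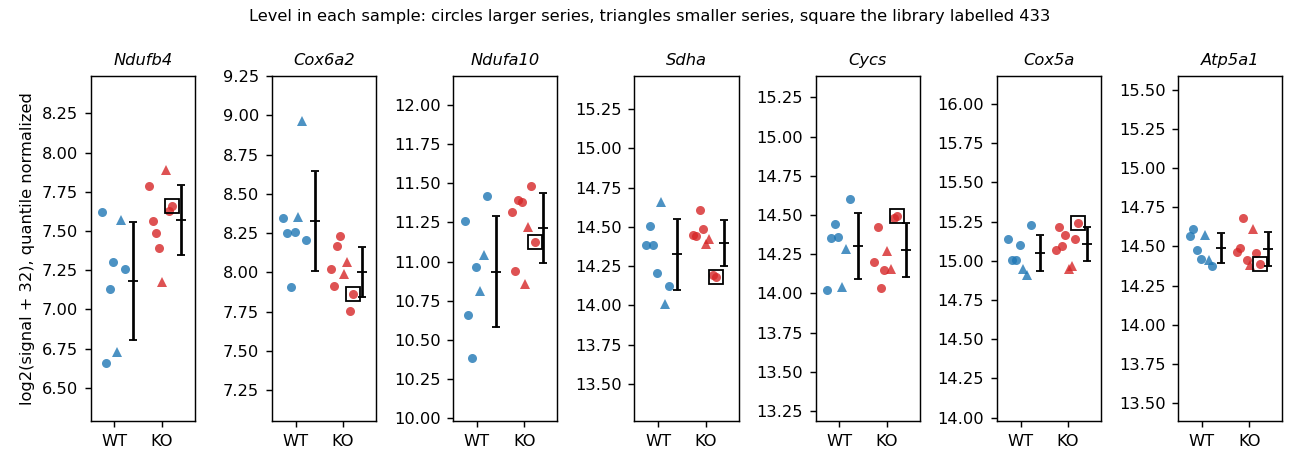
Level of 7 genes in each sample, as log2(signal + 32) after quantile normalization (vertical axis, the same span of 2.2 in each panel), in WT (blue, n = 7) and KO (red, n = 8). Black bars are mean ± SD; triangles are samples of the smaller series, circles those of the larger, and the square marks the library labelled 433. KO and WT overlap for every gene, with WT sample 392 highest for Cox6a2 at 8.96.

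Complex IV, cytochrome c oxidase, had a mean level of 10.80 ± 0.05 in the 7 WT and 10.76 ± 0.07 (SD) in the 8 KO samples. Cox4i1 and Cox5a, constitutive nuclear subunits, had log2 fold changes of -0.02 (SE 0.14, 95% confidence interval -0.31 to 0.27) and 0.06 (SE 0.08), or 0.03 and 0.04 without the library labelled 433. Several subunits exist as isoforms of different tissues, and here the brightest probe sets of the usual forms were close to 0: Cox6a1 had -0.02 (-0.01 without that library), Cox6b1 0.01, Cox7a2 -0.04 and Cox8a -0.09. The dimmer probe sets of Cox8a gave 0.58 (SE 0.32) and 0.02 (SE 0.17). Of the counterparts of the usual forms, all read by dim probe sets, Cox4i2 was at -0.04 (SE 0.18, and -0.004 without that library), Cox6b2 at -0.37 (SE 0.24), Cox7a1 at -0.42 (SE 0.24) and Cox8b at 0.37 (SE 0.20). Cox8b was above 6 in 2 KO samples, 212 and the library labelled 433, and its value was 0.25 without the latter. Cox7a1 had -0.16 within the larger and -1.03 within the smaller series.

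Cox6a2, the heart and muscle form of subunit 6a, encoded at chr7:128205435-128206366, had the lowest p of complex IV. The WT samples ran from 7.91 to 8.96 (median 8.26) and the KO samples from 7.75 to 8.23 (median 8.01). WT sample 392 was highest by a wide margin, and WT samples 437 and MS17 lay within the KO range. The log2 fold change was -0.33 (SE 0.15, 95% confidence interval -0.65 to -0.01, limma p = 0.0464, adjusted p = 1.00), and the exact two-sided permutation test gave p = 0.0118 for this gene alone. It was -0.31 without the library labelled 433, -0.22 without WT sample 392, -0.20 within the larger and -0.65 within the smaller series, and 0.23 (SE 0.28) for the other, dimmer probe set of Cox6a2.

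Complex V had a mean level of 12.48 ± 0.12 in the 7 WT and 12.48 ± 0.15 (SD) in the 8 KO samples. Atp5a1, the alpha subunit, was at 14.37 to 14.61 in WT and 14.38 to 14.68 in KO, with -0.005 (SE 0.08, 95% confidence interval -0.18 to 0.17), or 0.01 without the library labelled 433. Atp5b, the catalytic beta subunit, had 0.04 (SE 0.25), or 0.17 without that library, which was at 10.04, while the lowest KO sample was at 9.79. The 3 genes that encode the same mature c subunit, Atp5g1, Atp5g2 and Atp5g3, had 0.10 (SE 0.26), -0.11 (SE 0.22) and 0.01 (SE 0.08), the last of which was 0.04 without it. Atp5e, the epsilon subunit, had -0.22 (SE 0.16) and the smallest p of the complex, with -0.08 within the larger and -0.55 within the smaller series, and the stalk subunits Atp5j and Atp5pb had -0.10 (SE 0.12) and 0.06 (SE 0.09). The library labelled 433 was the lowest KO sample for Atp5j, whose value was -0.03 without it.

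In the pathway lists around the chain limma called 0 genes. Of 38 measured other assembly factors and of 18 genes of transcription and translation control, 0 reached an unadjusted p under 0.05. The pair with the smallest p was Atpaf2 (0.44, SE 0.27) and Cox11 (0.27, SE 0.17, and -0.62 for its other probe set) in the former and Gabpb1 (0.44, SE 0.22, and -0.31 for its other probe set) and Ppargc1b (0.34, SE 0.19) in the latter. Of 25 measured genes of pyruvate dehydrogenase and the citrate cycle, 1 was higher at that level, Ogdh (0.50, SE 0.23, and -0.09 for its other probe set), and 1 lower, Pdk4. Pdk4, a kinase that shuts off pyruvate dehydrogenase and a known FOXO target, had -0.57 on the log2 scale (SE 0.18, limma adjusted p = 1.00), and the larger and the smaller series alone gave -0.58 and -0.55. Of 14 carriers, 0 reached that level, and Vdac3 (0.10, SE 0.08) and Ckmt1 (-0.27, SE 0.22, and 0.25 for its other probe set) had the smallest p.

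More of these genes differed between the series than between the genotypes. With series beside genotype in the limma fit, a comparison added after the data were seen, 15 of the 92 genes were higher in the smaller series at an adjusted p under 0.05 (6.35% of all genes) and 1 was lower (4.29%). The median difference, smaller minus larger series, was 0.14 for the 92 genes and 0.07 for all genes. The mean level of all 92 genes was 11.98 to 12.01 in the 4 samples and 11.69 to 11.90 in the 11, without overlap. The same held for the means of complex I (12.72 to 12.82 against 12.40 to 12.69), complex III (12.313 to 12.56 against 11.87 to 12.307) and complex V (12.57 to 12.74 against 12.26 to 12.53). Complexes II and IV, the complex I assembly factors and Cycs overlapped. The share of all genes without overlap between the series was not counted.

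The 15 genes are 7 of complex I (Ndufs3, Ndufs7, Ndufs8, Ndufa8, Ndufa9, Ndufb7 and Ndufv3), the assembly factor Ndufaf3, Sdhb, Uqcrc1 and Uqcrq, Cox7a1, and Atp5d, Atp5g1 and Atp5g2, named after their values were seen. Ndufs3, Ndufs7 and Ndufs8 are core subunits of the arm that leads electrons to ubiquinone. Atp5g1, a c subunit gene, had the largest difference, with 10.28 to 11.00 in the 4 samples and 9.30 to 9.98 in the 11 (difference 1.08, SE 0.15, limma adjusted p = 0.000606). Ndufs3 was at 12.27 to 12.83 against 11.42 to 12.14 (difference 0.83, SE 0.14, limma adjusted p = 0.00213). Neither range overlapped. Cox6c, a small subunit of complex IV, was the gene that was lower, at 14.36 to 14.68 against 14.62 to 15.02 (difference -0.37, SE 0.09, limma adjusted p = 0.0227). The ratio of 3′ to 5′ Gapdh signal was 5.06 to 5.29 on the log2 scale in the 4 samples and 4.89 to 6.10 in the 11, and with this ratio as a covariate 14 genes were higher and 0 lower. The higher count was 7 without KO sample 390 (background 2.23%), 9 without WT sample 392 (1.72%) and 17 without the library labelled 433 (8.28%). The interaction of genotype with series passed for 0 of the 92 genes and 0 of all genes by limma, with 1 of the 92 at an unadjusted p under 0.05.

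**Figure D4:**
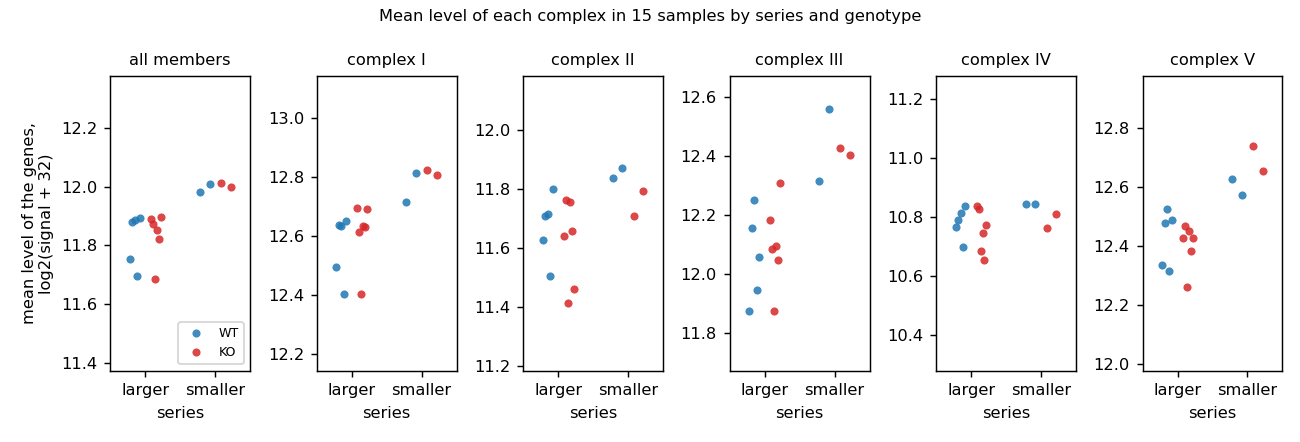
Mean level of the genes of each complex, log2(signal + 32) after quantile normalization (vertical axis, a span of 1 in each panel), in each of 15 samples by series (horizontal axis), with WT in blue and KO in red. The 4 samples of the smaller series lie at 11.98 to 12.01 for all 92 genes, above the 11 of the larger series, and the genotypes overlap within the larger series.

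Levels in the CA fields could be set beside those of granule neurons in 2 pairs of samples. No test was run, since the profile of a sample was read from its markers. If CA13 marks the CA fields, the profiles go against the labels in mark 433. By their markers, the CA13-marked sample of 437 and the library labelled 433 had the pyramidal profile, and their partners of the same mark the granule profile. The difference is given as pyramidal minus granule profile, after normalization of all 17 arrays. The median over the 92 genes was 0.08 in mark 437 and 0.05 in mark 433, beside 0.02 and 0.01 for all genes. Within 2-fold lay 88 of the 92 genes in mark 437 (86.7% of all genes) and 90 in mark 433 (88.0%). Over the same pairs Prox1, the granule neuron transcription factor, had -3.98 and -2.99, and Neurod6, a transcription factor of pyramidal neurons, 4.75 and 5.15.

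Of the 92 genes, 43 were higher in the pyramidal profile in both pairs and 24 lower in both, while 24 differed in sign and Ndufb11 had a difference of 0 in mark 437. For all genes the first shares were 33.7% and 30.3%. The complex I assembly factors had a median of 0.24 in mark 437 and 0.43 in mark 433, and 7 of the 8 were positive in both pairs. In mark 433 this goes with a low partner: the mean level of the 8 was 9.10 in the CA13-marked sample of 433, below all other samples (9.25 to 9.66), and that sample was the lowest for Ndufaf1, Ndufaf5, Ndufaf6 and Ndufaf7. The library labelled 433, at 9.49, lay within the range of the rest. Ndufaf4, which acts early in assembly, was at 11.13 against 10.32 in mark 437 and 11.10 against 10.59 in mark 433. Ndufaf3 was the exception, with 1.03 and -0.32.

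Both samples of pyramidal profile lay above all 15 others in 8 genes (6.88% of all genes): Ndufa5, Ndufa12, Ndufb2, Ndufb6, Ndufs4, Ndufaf4, Cox6c and Atp5j2, named after their values were seen. They lay below all others in 0 (5.25%). In Ndufs4, a subunit near the NADH-binding end, they were at 11.99 and 11.97, beside 10.77 to 11.64 in the others. In Ndufa12 they were at 14.33 and 14.36, beside 13.35 to 14.16. The margins of Cox6c were small, with 15.030 and 15.038 against a highest other value of 15.027. With the mean of all probe sets of a gene, 2 genes lay above and 1 below.

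The largest positive differences on average over both pairs were those of Cox8a (0.85 in mark 437 and 1.06 in mark 433), Uqcr10 (0.38 and 1.00), Ndufaf4 (0.81 and 0.51), Cox8b (0.05 and 1.16) and Ndufab1 (0.15 and 0.98). Of these, Ndufaf4 alone had both samples of pyramidal profile above all others. Among the unmarked samples, Cox8a was at 10.56 in the library labelled 433 and higher, at 11.07, in KO sample MS15. For Uqcr10 the CA13-marked sample of 437, at 10.63, lay below the highest of the others at 11.00. Cox8b is dim, with a mean signal of 21.4. For Ndufab1 in mark 433, the CA13-marked sample was the lowest of all at 9.23, and the library labelled 433, at 10.21, did not exceed the highest of the others. Ndufab1 is the mitochondrial acyl carrier protein, and Uqcr10 a small subunit of complex III. The largest negative ones were those of Ndufa4l2 (-1.60 and -0.61), Ndufb1 (-1.52 and -0.67), Cox4i1 (-1.35 and -0.56), Atp5b (-0.49 and -0.63) and Cox7b2 (-0.46 and -0.65). Ndufa4l2, Ndufb1 and Cox7b2 are dim, with mean signals of 64.5, 112.2 and 78.9 over the unmarked samples. For Ndufb1, the unmarked sample of 437 was the highest of all at 8.33. Both samples of pyramidal profile, at 6.81 and 6.55, lay within the range of the others (6.32 to 8.33). Cox4i1, with a mean WT signal of 16343, was at 13.08 in the CA13-marked sample of 437 and 13.589 in the library labelled 433, beside 13.587 to 14.43 in the others. Each of these 5 was read by 1 probe set.

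**Figure D5:**
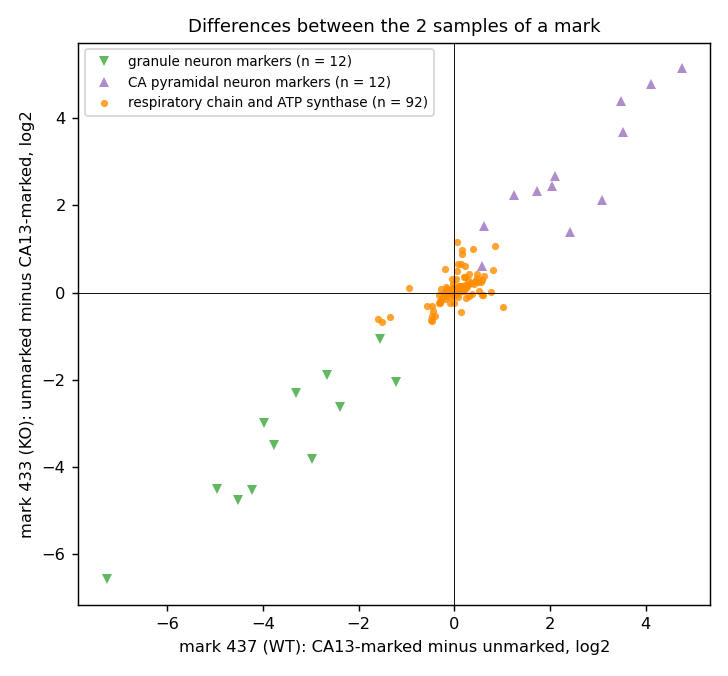
Difference between the samples of pyramidal and granule profile in mark 437 (horizontal axis, log2) and mark 433 (vertical axis, log2), for 92 respiratory chain and ATP synthase genes (orange), 12 granule neuron markers (green) and 12 CA pyramidal neuron markers (purple). The orange points gather near 0, with Ndufa4l2 lowest at -1.60 and -0.61, while Prox1 lies at -3.98 and -2.99 and Neurod6 at 4.75 and 5.15.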

How the data were processed

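Dentate gyrus RNA of 17 samples was read on Affymetrix mouse arrays. The authors deposited a linear signal intensity for every probe set, with a trimmed mean of about 499.8 per array. The submitters' processing notes name MAS5 and the methods of the study RMA and SAM, and the values were used as deposited. The genome build (not given in the sources used here) was not needed. Genes and coordinates were taken from the platform annotation and a RefSeq table of GRCm38.p6 (34741 of 34945 single-symbol probe sets matched).

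The 64 control probe sets were left out, log2(signal + 32) was quantile normalized, and limma 3.58.1 in R 4.3.3 (eBayes with an intensity trend, genotype as the only term, no filter) was fitted to 45037 probe sets with Benjamini-Hochberg adjustment. The linear values took the path laid down for linear values. The steps were tested on simulated data. The number of arrays limits the precision. Columns not used were 0, and 0 columns were identical (correlations 0.907 to 0.974).

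The members and the gene lists were chosen with earlier results of these data known. Genes were named by rule: an unadjusted p under 0.05, up to 3 genes per complex with the smallest p, core subunits, isoform pairs, the 5 largest pyramidal minus granule differences in either direction, and the 2 genes of each pathway list with the smallest p. Others are marked as chosen after their values were seen. Alternatives covered scaling, pseudocount, a filter on dim probe sets, samples, series, RNA quality, array weights, variance trend, SAM, the methods' t-test, the probe set per gene and leaving out each sample.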

Additional observations from a re-analysis of the deposited data

Results flagged for a closer look

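Among 94 groups of values tested, 5 had a highest or lowest sample whose gap to its neighbour took up a large share of the range. Chance gives about 1 in 20, and 5 of 94 lies near that rate. WT sample 392 held 3 of the 5. It was the highest WT sample for Cox6a2, at 8.964 beside 8.352 for the next, and for Atp5g2, at 9.445 beside 8.66, and the lowest for Atp5g3, at 14.41 beside 14.58. KO sample 384 was the lowest for Ndufs5, at 7.203 beside 8.13. The library labelled 433 was the highest KO sample for Uqcr10, at 11.33 beside 10.42.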

How the results depend on the processing

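In each of 30 alternative settings 0 of the 92 genes were called between KO and WT, and 0 to 3 had an unadjusted p under 0.05. The median log2 fold change of all 92 stayed between -0.03 and 0.02, and the median of all genes between -0.01 and 0.02. Of 1224 values of the 41 named genes in these settings, 0 were called, 11 moved by more than 1 SD between samples, and 102, in 24 genes, had the opposite sign. Ndufb4 ran from 0.24 (the larger pseudocount tried) to 0.49 (the smaller), and Cox6a2 from -0.65 (within the smaller series) to -0.05 (mean of all probe sets). With the mean of all probe sets, the genes with both samples of pyramidal profile above or below the others numbered 2 and 1. Leaving out each sample gave 7 to 17 genes higher and 0 to 2 lower in the smaller series. The count lower was 0 with RNA quality as a covariate, and 10 were higher without quantile normalization. The cause was not tested. No paired analysis was possible because the labels give no replicate numbers that KO and WT share. The differences between fields were not tested, since the profiles were read from markers and not from the labels.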
